A study of Mus musculus with 12 samples.

Results

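Transcripts of 7 interferon-linked genes were followed in long-term haematopoietic stem cells (LT-HSCs) of mouse bone marrow, out of 23472 genes in the count table. The genes were chosen by name, with earlier results of these data known. They are Pml, Sp100, Sp110 and Daxx, which encode proteins of nuclear bodies, and Ifi203, Ifi204 and Aim2 of the PYHIN family. All 7 were present in the table, and 6 of them were among the 13184 genes that passed the filter on low counts. Ifi204 was too low to be tested. The study compared 6 libraries labelled wt, from cre-negative C57BL/6 mice, with 6 labelled Jak1 KO, from cre-positive C57BL/6 mice. Both groups had received 4 doses of poly(I:C), an interferon-inducing double-stranded RNA given to bring about the deletion, 4 to 6 weeks before the marrow was taken. Jak1 encodes a tyrosine kinase of the interferon receptors. In each genotype, libraries 1 to 3 carried names of a VD series and libraries 4 to 6 names of a ZL series, called name sets here. The VD names also carry MXminus or MXplus. Age, sex, any pooling of animals and the deleted exons are not stated in the labels. Because cre was present in 1 genotype alone, its own effect and that of the deletion cannot be told apart.

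PML nuclear bodies are protein assemblies in the nucleus that are scaffolded by PML, a SUMO-modified protein of the TRIM family. They gather SP100 and its relatives together with DAXX, a chaperone that deposits histone H3.3 with its partner ATRX, and they are known for restricting the chromatin of incoming viruses. PML is also known for a part in the quiescence of blood stem cells. PYHIN proteins bind DNA through a HIN domain. AIM2 senses double-stranded DNA in the cytosol and assembles an inflammasome with the adaptor ASC and caspase-1, and IFI204 is known as a DNA sensor that signals through STING. Genes of both groups are known to be induced by interferon, and the comparison asks how they stood in LT-HSCs labelled as lacking an interferon receptor kinase.

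None of the 6 tested genes differed between the genotypes past the threshold used, an adjusted p of 0.05 in edgeR's quasi-likelihood test over all genes. Of all tested genes 0.44% passed it, 0.432% (57 genes) with lower and 0.00758% (1 gene) with higher levels under the Jak1 KO label. At an unadjusted p under 0.05 the count was 1 of 6, Sp100, which was lower. Of all tested genes 5.06% reached that level in either direction and 2.66% reached it with a lower value. DESeq2 and limma-voom also called 0 of the 6 after adjustment, and had 1 and 4 of them at an unadjusted p under 0.05, a level that 6.92% and 12.5% of all genes reached with these tools. The log2 fold changes of the 6 had a median of -0.24, all 6 below 0, against a median of -0.0060 over all tested genes, of which 51% were below 0. Those of Aim2 (-0.020) and Sp110 (-0.094) turned above 0 under some alternatives given below. In bulk samples like these, fewer cells of a type and less RNA per cell cannot be told apart. The labels do not say whether the libraries of a genotype are separate animals. The p-values therefore reflect the spread among these libraries only, and that spread may be technical.

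The start regions of 3 members and of Mndal, a PYHIN neighbour of Ifi203, are shown because the members' only matches lie there to motifs built from the GAAA half-sites that interferon regulatory factors bind. Each window runs from 130 bases before a RefSeq start site to 20 bases from it (GRCm38.p6, the second listed start for Sp110 and Ifi203). Sequences read 5′ to 3′ along the gene, and capitals mark the match. Sp100 lies on the plus strand (window chr1:85649858-85650007), and Sp110 on the minus strand (window chr1:85598791-85598940). Ifi203 (window chr1:173942473-173942622) and Mndal (window chr1:173880168-173880317) lie on the minus strand.
Sp100: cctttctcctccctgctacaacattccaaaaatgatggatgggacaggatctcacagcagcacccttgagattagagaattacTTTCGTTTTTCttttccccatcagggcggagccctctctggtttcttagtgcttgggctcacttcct
Sp110: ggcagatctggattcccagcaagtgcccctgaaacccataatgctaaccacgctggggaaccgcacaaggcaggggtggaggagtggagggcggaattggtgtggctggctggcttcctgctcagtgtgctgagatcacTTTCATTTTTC
Ifi203: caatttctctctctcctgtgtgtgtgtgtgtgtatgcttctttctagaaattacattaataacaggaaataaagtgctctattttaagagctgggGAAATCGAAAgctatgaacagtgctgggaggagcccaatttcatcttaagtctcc
Mndal: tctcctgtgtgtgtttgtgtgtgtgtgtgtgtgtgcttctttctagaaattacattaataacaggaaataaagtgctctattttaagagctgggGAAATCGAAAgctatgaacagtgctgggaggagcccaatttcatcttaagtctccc

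Windows of 300 bases, from 250 before the start to 50 from it, were searched on both strands. RefSeq windows were at hand for 6 of the 7 members, and Ifi204 was not among them. The core of the interferon-stimulated response element, GAAANNGAAA, matched in 1 member, Ifi203, at bases -35 to -26 relative to the second of its listed starts. The same letters stood at -36 to -27 in the window of Mndal. Over all 32851 windows of this length 3.44% held this core. The STAT-dimer motif TTCNNNGAA matched in 0 members and in 8.30% of all windows. A pair of half-sites 3 bases apart, GAAANNNGAAA, was searched only after the sequences had been read. It matched on the opposite strand in Sp100, at -47 to -37, and in Sp110, at bases 9 to 19 relative to its second start, and in 2.75% of all windows. The printed Sp100 and Sp110 windows aligned locally over 20 columns around this match, with 17 identities. Ifi203 and Mndal aligned over 134 columns with 133 identities. A match is a description of letters, and no match says nothing about binding of a factor elsewhere.

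**Figure D1:**
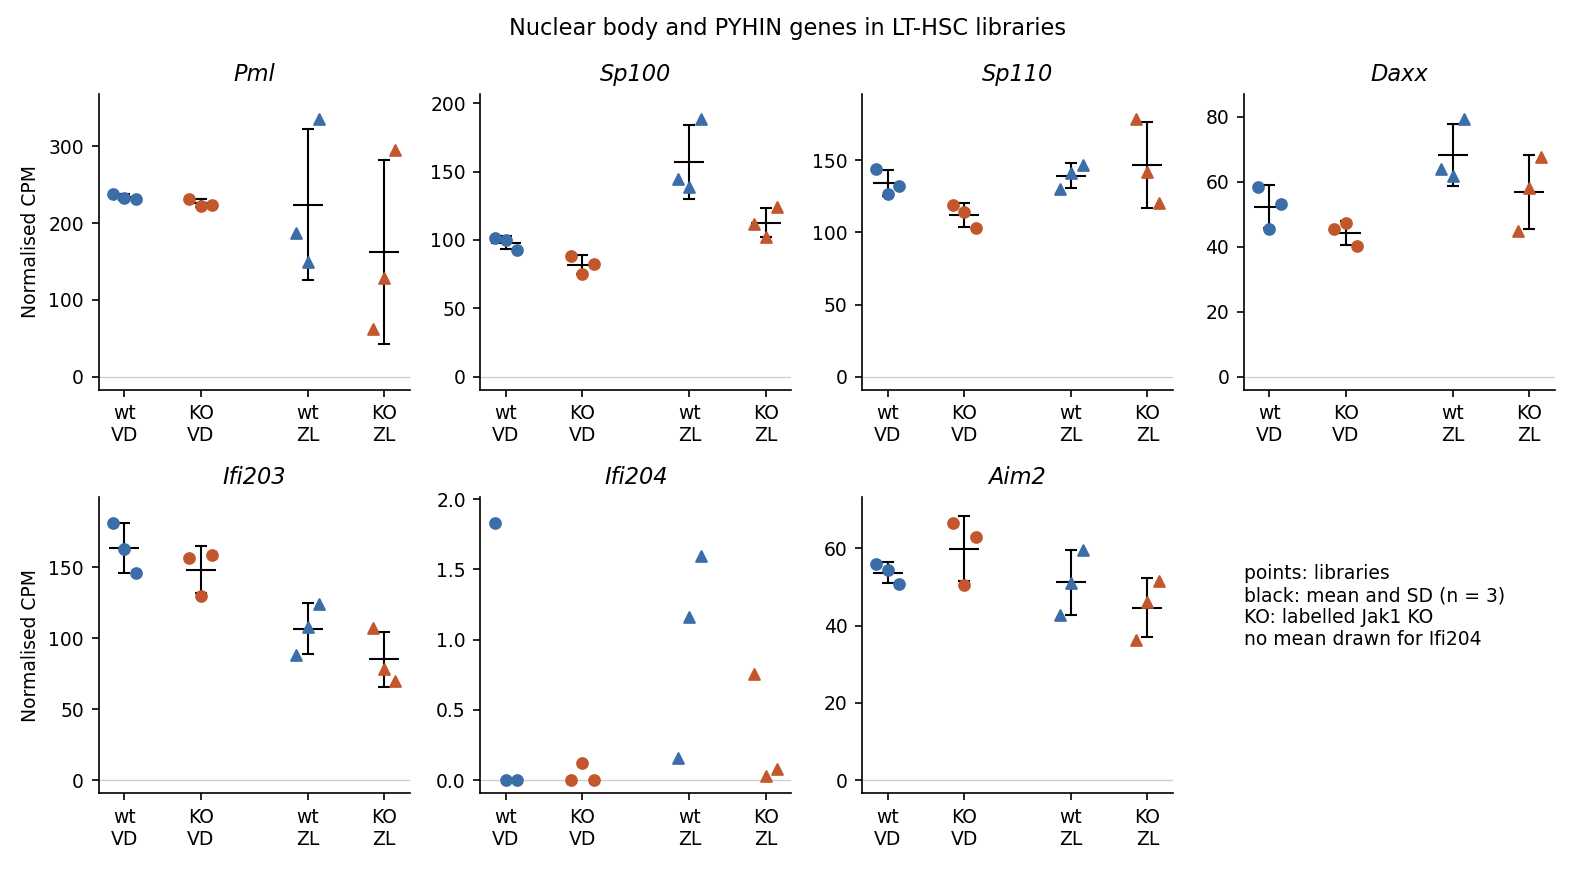
CPM (counts scaled to a common normalised library total, vertical axis, linear) of the 7 genes in each library, by genotype and name set, with the mean and SD of 3 libraries (no mean for Ifi204). For Sp100 the libraries labelled Jak1 KO lie below the wt libraries in both sets, and for Pml the ZL libraries spread from 62.2 to 335 while the VD libraries lie between 222 and 238.

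Sp100 encodes a resident nuclear body protein that binds PML and is best known as an autoantigen. It came nearest to the threshold. In VD it stood at 102, 100.1 and 92.3 normalised CPM in wt libraries 1 to 3 and at 88.4, 75.0 and 82.6 in libraries labelled Jak1 KO 1 to 3. In ZL the wt libraries held 145, 139 and 188, and those labelled Jak1 KO held 112, 102 and 124. Every library labelled Jak1 KO thus lay below every wt library of its set, in VD and in ZL. Such an arrangement in both sets held for 1 member, and for 0.963% of all tested genes. The log2 fold change was -0.37 (SE 0.13, 95% interval -0.65 to -0.091, edgeR adjusted p = 0.686, unadjusted p = 0.0130), which placed Sp100 at rank 250 of 13184 by p. Within the sets it was -0.22 in VD (SE 0.10, interval -0.43 to 0.0014) and -0.48 in ZL (SE 0.24, interval -1.05 to 0.080). Leaving out any 1 library kept it between -0.41 and -0.29. Sp100 spans chromosome 1 from 85649988 to 85709998 on the plus strand (GRCm38, used for all gene positions here).

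Sp110, of the same family, is known in mice from a locus that affects resistance to tuberculosis. It lies on chromosome 1 from 85576899 to 85598817 on the minus strand, close to Sp100. In VD the wt libraries held 144, 126 and 132 CPM and those labelled Jak1 KO 119, 114 and 103, without overlap. The ZL wt libraries held 129.8, 141 and 146, and those labelled Jak1 KO 178, 141 and 120.0, so that here the groups overlapped and the highest value was that of the library labelled Jak1 KO 4. Without overlap in VD, with all libraries labelled Jak1 KO lower, were 2 of the 7 members, Sp100 and Sp110, as were 13.2% of all tested genes. In ZL it was 1 member, against 2.34% of genes. The log2 fold change of Sp110 was -0.094 over all libraries (SE 0.14, interval -0.39 to 0.20, edgeR adjusted p = 0.945). In VD alone it was -0.22 (SE 0.092, adjusted p = 0.299, where 1.15% of genes passed) and in ZL alone 0.071 (SE 0.25, where 0% passed). The interaction of genotype and set was 0.34 (SE 0.27, edgeR adjusted p = 0.975, unadjusted p = 0.232). No gene passed that interaction test after adjustment (0%), and 1.38% of genes had an unadjusted p under 0.05.

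Pml encodes the scaffold of the bodies and is known from the fusion with the retinoic acid receptor in promyelocytic leukaemia. Its VD libraries were almost alike, at 238, 233 and 231 CPM in wt and 232, 222 and 224 in those labelled Jak1 KO. The VD log2 fold change was -0.0095 (SE 0.076) with a 95% interval of -0.17 to 0.15. In ZL the wt libraries held 187, 149 and 335 CPM and those labelled Jak1 KO 62.2, 129 and 295. The ZL libraries of both genotypes thus spread over a far wider range than the VD libraries, and the ZL log2 fold change of -0.46 had an SE of 0.55. Pooled, the log2 fold change was -0.26 (SE 0.30, interval -0.90 to 0.39, edgeR adjusted p = 0.945). Without the library labelled Jak1 KO 4 it was -0.026, and without Jak1 KO 6 it was -0.56. Pml lies on chromosome 9 from 58218076 to 58249786 on the minus strand.

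The spread of Pml in ZL ran beside a trait of the whole libraries. For each library, the log2 CPM of all tested genes relative to the mean of the name set was compared with exon length by Spearman's coefficient over genes. It was -0.52 in the library labelled Jak1 KO 4, -0.27 in wt 5, -0.17 in Jak1 KO 5, 0.22 in wt 4, 0.38 in wt 6 and 0.45 in Jak1 KO 6, and between -0.10 and 0.12 in VD libraries. Pml was lowest in Jak1 KO 4, the library with the most negative coefficient, and highest in wt 6 and Jak1 KO 6, which had the most positive ones. Limma-voom gave these 3 libraries the quality weights 0.165, 0.215 and 0.359, the lowest of the 12. With an offset for the exon length trend the log2 fold change of Pml was -0.22 (edgeR adjusted p = 0.908), and with those 3 libraries left out it was -0.11 (0.887). The gene-wise biological coefficient of variation in edgeR was 0.37 for Pml and 0.19 to 0.21 for the other 5 tested members. Whether the exon length trend gave rise to the spread of Pml was not tested.

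**Figure D2:**
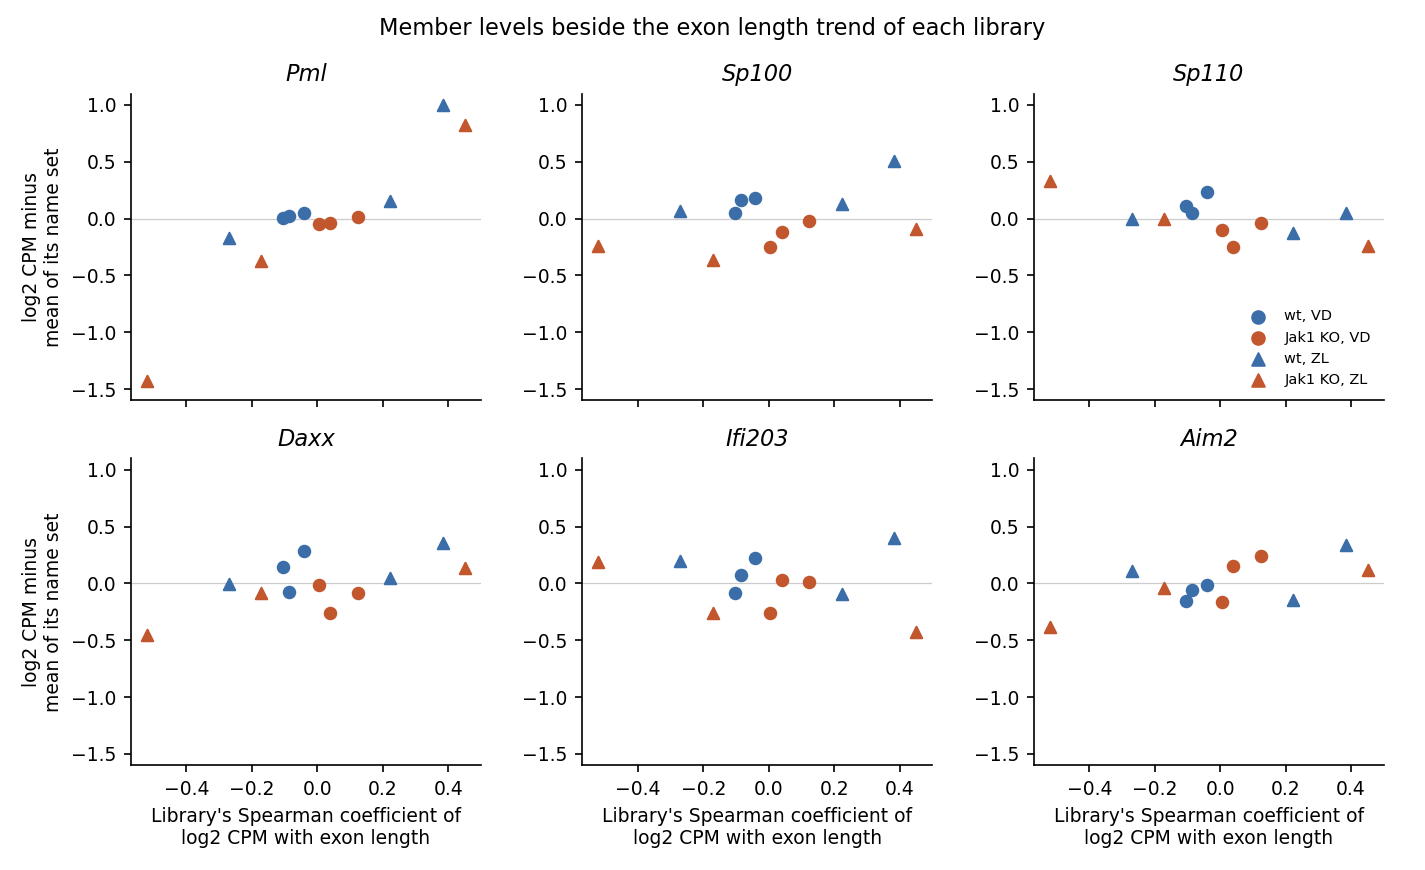
Log2 CPM of the 6 tested genes relative to the mean of each name set (vertical axis) against each library's Spearman coefficient of log2 CPM with exon length (horizontal axis), 1 point per library. The Pml points climb from the library labelled Jak1 KO 4, at a coefficient of -0.52, to wt 6 and Jak1 KO 6, while Sp110 is highest in Jak1 KO 4.

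Daxx encodes the histone H3.3 chaperone and lies on chromosome 17 from 33909414 to 33915590 on the plus strand. Its CPM were 58.5, 45.5 and 53.2 in the VD wt libraries against 45.3, 47.5 and 40.1 in those labelled Jak1 KO. In ZL they were 63.9, 61.7 and 79.2 against 45.0, 58.2 and 67.7. The groups overlapped in both sets. The log2 fold changes were similar in VD (-0.20, SE 0.14) and ZL (-0.26, SE 0.27), and -0.25 pooled (SE 0.15, interval -0.57 to 0.061, edgeR adjusted p = 0.945). Leaving out the library labelled Jak1 KO 4 moved the pooled value to -0.15. Atrx, its partner in H3.3 deposition, averaged 414 ± 51.8 CPM (wt) and 428 ± 43.7 (Jak1 KO label; SD, n = 6 each), with a log2 fold change of 0.046 (SE 0.13).

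Ifi203 encodes a nuclear HIN-domain protein and lies on chromosome 1 from 173920407 to 173942672 on the minus strand, within the PYHIN cluster. VD wt libraries held 181, 163 and 146 CPM and those labelled Jak1 KO 157, 129 and 158. ZL wt libraries held 88.0, 108 and 124 and those labelled Jak1 KO 107, 78.6 and 69.8. The genotypes overlapped in both sets, and the pooled log2 fold change was -0.23 (SE 0.15, interval -0.55 to 0.085, edgeR adjusted p = 0.945). Larger than this was the distance between the sets: every ZL library, from 69.8 to 124 CPM, lay below every VD library, from 129 to 181. Sp100 lay the other way, with all ZL libraries above all VD libraries. Of all tested genes 15.8% lay wholly lower in ZL, 22.6% wholly higher, and 38.4% either way. Other traits differed between the sets too. The ribosomal RNA gene Rn45s made up 14.8% to 22.6% of a VD library's total and 0.511% to 0.950% of a ZL library's. Of 11 neutrophil markers, 7 lay wholly lower in ZL (S100a9 at 150 to 415 CPM in VD and 2.2 to 4.4 in ZL) and 4 overlapped, among them Prtn3, at 102 to 150 in VD and 85.4 to 246 in ZL. Their summed level was 577 to 1515 CPM in VD and 95.7 to 262 in ZL. The part of these traits in the set differences of Ifi203 and Sp100 was not tested.

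The split of reads between Ifi203 and Mndal is uncertain: their start regions are near copies, the GENCODE models share 37 exon bases, and RefSeq lists Mndal as a synonym of Ifi203 beside its own entry. In VD wt libraries Mndal held 105, 96.1 and 93.6 CPM, against 75.0, 87.6 and 100.2 in those labelled Jak1 KO. In ZL it held 98.1, 129 and 123 against 95.6, 75.5 and 76.8, without overlap, as did 2.34% of all tested genes in that direction. For Mndal the log2 difference came to -0.33 (SE 0.14, edgeR adjusted p = 0.877, unadjusted p = 0.0330). Counted as 1 gene, the pair had a log2 fold change of -0.28 (SE 0.14, edgeR adjusted p = 0.945).

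Aim2, the cytosolic DNA sensor, showed the smallest pooled difference. It lies on chromosome 1 from 173350879 to 173466040 on the plus strand. Its VD wt libraries held 56.0, 54.3 and 50.8 CPM and those labelled Jak1 KO 66.6, 50.4 and 62.8. In ZL the values were 42.8, 51.0 and 59.6 against 36.3, 46.1 and 51.4. Over 6 libraries each, wt averaged 52.4 ± 5.75 CPM and the Jak1 KO label 52.3 ± 11.1 (SD). The log2 fold change was -0.020 (SE 0.15, interval -0.35 to 0.31, edgeR adjusted p = 0.990), 0.20 in VD (SE 0.13) and -0.20 in ZL (SE 0.27), and the interaction was -0.36 (SE 0.31, edgeR adjusted p = 0.975). Its sign turned under several alternatives, so that no direction can be read for it.

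Ifi204, on chromosome 1 from 173747293 to 173766943 (minus strand), was barely detected. The wt libraries 1 to 6 held 27, 0, 0, 4, 35 and 43 counts, and the libraries labelled Jak1 KO 0, 1, 0, 10, 1 and 2. Counts were present in 4 libraries of each genotype, the wt total of 109 rested mostly on wt 1, wt 5 and wt 6, and 10 of the 14 counts under the Jak1 KO label came from Jak1 KO 4. The pooled CPM was 6.68 times as high in wt, with a 95% interval of 3.82 to 12.6 that covers counting error only. Without Jak1 KO 4 it was 20.3 times as high (7.72 to 76.0), and with any other library left out 4.96 to 8.24 times. The libraries of a group differed by more than counting error, so this ratio carries no test of the genotypes. Without the filter on low counts edgeR gave a log2 fold change of -2.49 (SE 1.14, adjusted p = 0.905, unadjusted p = 0.0402). In ZL alone, where Ifi204 passed the filter, it gave -1.95 (SE 1.20, adjusted p = 0.946, unadjusted p = 0.144). Markers of monocytes and macrophages were present in all libraries, 15 genes summing to 251 to 533 CPM in wt and 266 to 988 under the Jak1 KO label. Lyz2 alone gave 213 to 951 CPM, Ms4a6c held 4.1 to 17.2 and Csf1r 0.91 to 8.8, where Ifi204 reached at most 1.83. Whether cells other than LT-HSCs gave the Ifi204 counts was not tested.

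**Figure D3:**
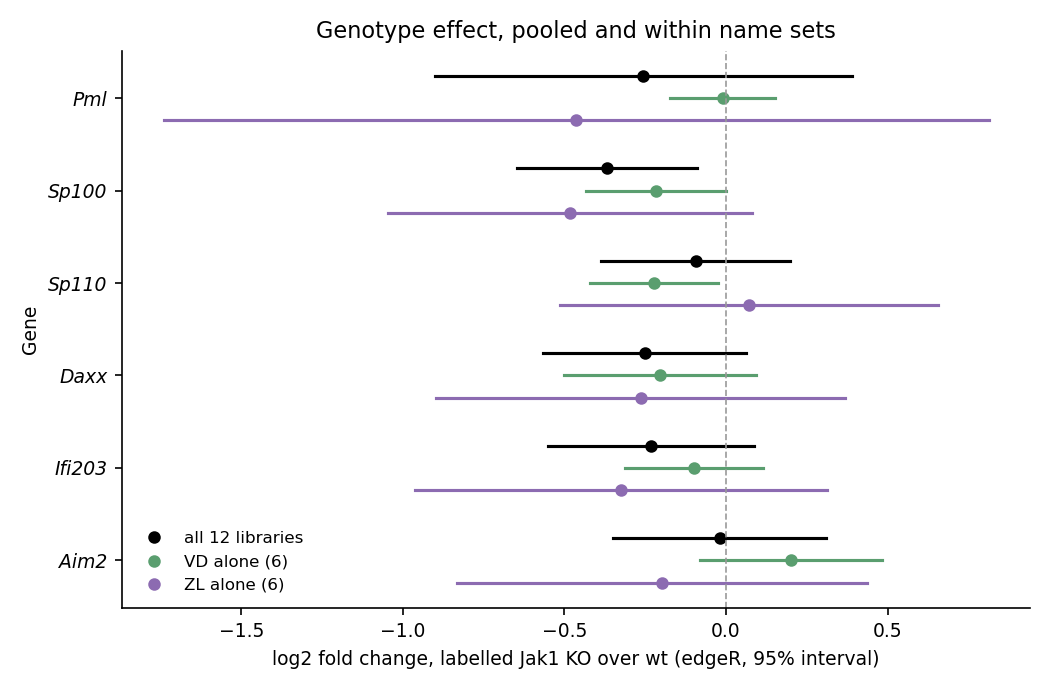
Log2 fold change (horizontal axis) of the 6 tested genes, libraries labelled Jak1 KO over wt, with 95% intervals from edgeR for all 12 libraries, the 6 VD libraries and the 6 ZL libraries. For each gene the VD interval is narrower than the ZL interval, and only the pooled interval of Sp100 and the VD interval of Sp110 leave out 0, before any adjustment for the number of genes.

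Scaled by exon length, Pml was the most abundant member in wt libraries, at 41.0 CPM per kilobase. Sp110 (20.2), Ifi203 (20.1), Daxx (19.1), Sp100 (16.9) and Aim2 (14.97) followed within a narrow range, and the step between neighbours in this order was smaller than the larger of their SDs over libraries. Ifi204 stood at 0.22 CPM per kilobase. In the libraries labelled Jak1 KO the corresponding levels were 34.8 for Pml, 19.1 for Sp110, 17.4 for Ifi203, 16.1 for Daxx, 12.9 for Sp100 and 14.9 for Aim2. Aim2 thus stood above Sp100 there, and neither gene passed the test.

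Most other genes of these families were too low to test. Of 9 further PYHIN genes counted, Mndal alone was tested, and it did not pass. Below the filter, Pydc4 summed to 90 counts over wt libraries and 17 over those labelled Jak1 KO, and AI607873 to 60 and 20. Their CPM ratios, wt over Jak1 KO label, were 4.55 (counting interval 2.69 to 8.14) and 2.58 (1.53 to 4.51). These intervals cover counting error only. Of the Pydc4 counts wt 5 held 38 and wt 6 held 37, and of the AI607873 counts wt 5 held 39. Pyhin1 summed to 51 and 34, a CPM ratio of 1.29 with a counting interval of 0.818 to 2.05. Pydc3 had 8 and 7 counts, Ifi202b 2 and 4, Ifi205 3 and 2, Mnda 2 and 2, and BC094916 1 and 0. Pydc4 and AI607873 each had counts in 4 wt libraries and in 3 labelled Jak1 KO. Of 5 other SP100-family genes 3 were tested and 0 passed with edgeR (0 also at an unadjusted p under 0.05). Sp140, a bromodomain protein gene next to Sp110, had means of 25.2 ± 3.57 CPM (wt) and 22.5 ± 5.95 (Jak1 KO label), a log2 fold change of -0.17 (SE 0.20). C130026I21Rik and A530032D15Rik, both low, had log2 fold changes of -0.81 (SE 0.74) and -0.23 (SE 0.40). Gm7609 held 17 counts spread over 5 wt libraries and 0 in the other genotype. Set against a limit of 3 counts summed over the 6 libraries it was at least 4.87-fold lower, which covers counting error only.

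The SUMO pathway and nuclear body partners gave 0 of 36 tested genes past edgeR's threshold and 0 at an unadjusted p under 0.05. Their median log2 fold change was -0.12, with 28 below 0. The smallest p belonged to Rb1, the retinoblastoma protein gene (34.2 ± 17.3 and 24.9 ± 16.0 CPM, log2 fold change -0.66, SE 0.31). Rnf4, the ubiquitin ligase that recognises SUMO chains on PML, had -0.30 (SE 0.15), and Uba2, a subunit of the SUMO-activating enzyme, -0.20 (SE 0.12). Of the 14 H3.3 chaperones and partners of Daxx 0 passed and 0 had an unadjusted p under 0.05, with a median of -0.12. Hira, the chaperone that places H3.3 at active genes, had -0.33 (SE 0.21) and Cabin1, of the same complex, -0.25 (SE 0.21). Trim28, the corepressor that works with SETDB1, had -0.21 (SE 0.20).

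Among the inflammasome and sensing partners of AIM2 and IFI204, 1 of 18 tested genes was lower and 0 higher, where 0.432% and 0.00758% of all genes were. This list was chosen with earlier results of these data known, so the count is no test of the list. The lower gene was Zbp1, a sensor of Z-form nucleic acids that triggers cell death. It stood at 17.8, 11.8, 14.6, 12.8, 15.9 and 24.1 CPM in wt libraries 1 to 6 and at 1.36, 3.78, 3.94, 9.96, 2.79 and 4.02 in those labelled Jak1 KO. The groups did not overlap, and the library labelled Jak1 KO 4 came closest to wt. In both name sets all libraries labelled Jak1 KO lay below all wt libraries, as they did for 0.963% of all tested genes. The log2 fold change of Zbp1 was -1.97 (SE 0.35, edgeR adjusted p = 0.0218). When each of the 12 libraries was omitted in turn, Zbp1 passed 5 times. It missed without wt 1, 3 or 6 and without Jak1 KO 2, 3, 5 or 6 (edgeR adjusted p up to 0.0661). The partners that act directly with AIM2 did not pass. Pycard, which encodes ASC, averaged 69.6 ± 26.7 CPM (wt) and 70.0 ± 41.8 (Jak1 KO label), and Gsdmd, the pore-forming gasdermin, at 119 ± 22.7 and 117 ± 18.1. Casp1 had a log2 fold change of -0.42 (SE 0.22, edgeR adjusted p = 0.945), and Il1b, the cytokine that caspase-1 matures, -0.97 (SE 0.46, adjusted p = 0.945). Tmem173, which encodes STING, had 0.22 (SE 0.14). The list's median was -0.074.

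**Figure D4:**
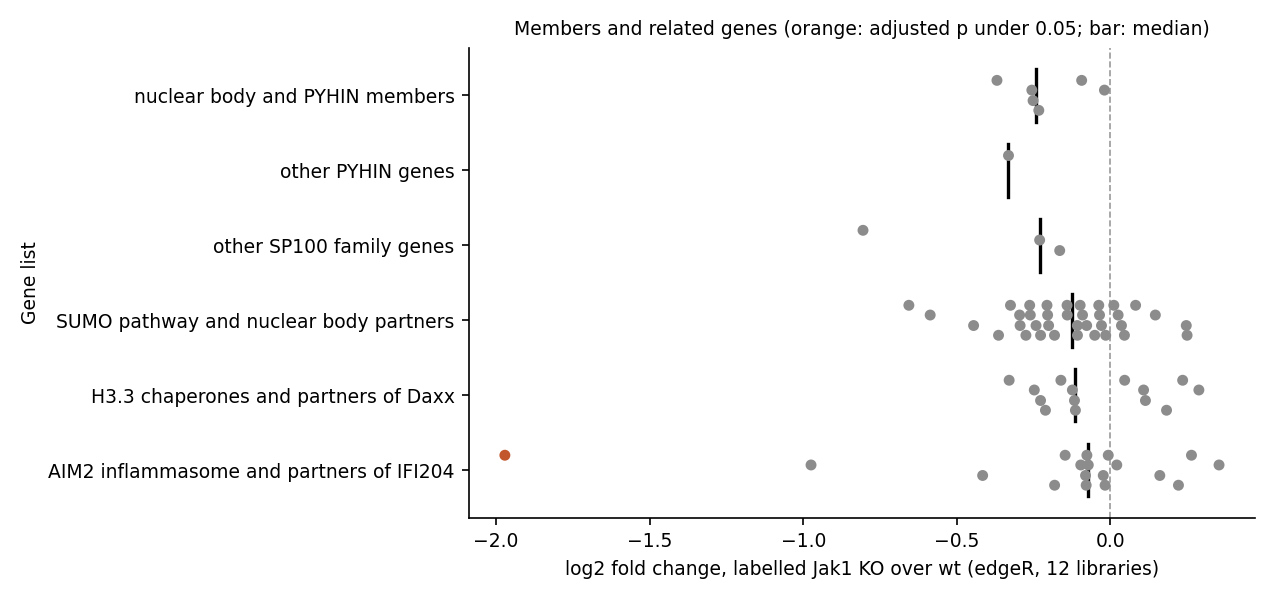
Log2 fold change, libraries labelled Jak1 KO over wt (horizontal axis), of each tested member and of each tested gene in 5 related lists (rows), with the median of each row as a bar. The 1 orange point past the adjusted threshold is Zbp1 at -1.97, and the 6 members lie between -0.37 and -0.020.

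The genes whose levels followed each member most closely were found by Pearson's r of log2 CPM over 12 libraries, after the mean of each name set was subtracted, among 11791 named genes with at least 1 CPM. They are a description, since the libraries share their depth and quality traits and the genotype difference was not removed. For Sp100 they were Eif2ak2, the double-stranded RNA-activated kinase PKR (r = 0.97), Slfn5, a schlafen gene (0.97), and Ddx60, a helicase gene (0.94). These neighbours of Sp100 had edgeR log2 fold changes of -0.44, -1.28 and -0.71, and none passed the adjusted threshold. For Pml the closest genes were Pik3r4, Sec24c and Pik3cg, each at r = 0.996. Daxx lay closest to Pitpnb (0.97), Lgals8 (0.95) and Rpa1 (0.95), and Sp110 to Hn1 (0.95), Ldha (0.95) and Prpf31 (0.93). For Aim2 they were Trim45, Ankrd23 and Tmem18, at 0.92 each. Ifi203 had looser neighbours, Fcer1a (0.86), Treml1 (0.85) and Mtss1 (0.84). Among the members themselves r ranged from -0.54, between Pml and Sp110, to 0.81, between Pml and Daxx.

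Totals ranged from 8989965 to 28701855 counts per library. Jak1 itself was counted at 321 to 435 CPM in wt libraries and 246 to 727 in those labelled Jak1 KO, and as the deleted exons are not known, this count does not check the labels. Of 17 genes on the LT-HSC list, 0 passed the test with edgeR (2 at an unadjusted p under 0.05). That list also holds Cd34 and Flt3, which are not positive markers of LT-HSCs. In the library labelled Jak1 KO 4, 6 of the 17 were at their lowest (Kit at 197 CPM) and 4 at their highest (Procr at 272, Pdzk1ip1 at 548). Summed markers of other cells overlapped between genotypes for the 6 other lists, and did not for megakaryocytes. The 8 megakaryocyte markers summed to 828 to 1111 CPM in wt and 418 to 785 under the Jak1 KO label, and most of the sum came from Itga2b and Pf4. Itga2b was the 1 marker past the threshold (log2 fold change -1.08, SE 0.20, adjusted p = 0.0247 in edgeR). Among these 8 it was also the only one without overlap between genotypes, and Gp9, Ppbp and Treml1 were highest in Jak1 KO 4. All libraries labelled Jak1 KO lay below all wt libraries in both name sets for Itga2b, and for 0.963% of all tested genes. Flt3, on the LT-HSC and dendritic cell lists, lay higher in every library labelled Jak1 KO (35.6 to 52.1 CPM) than in any wt library (25.2 to 33.5). The share of all genes lying so was not counted. Whether these differences bear on the members was not tested.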

How the data were processed

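Poly-A RNA of LT-HSCs was sequenced, per the labels' protocols, after TRIzol extraction and TruSeq version 2 library preparation. The values the authors deposited are unnormalised counts of reads for each gene. STAR 2.3.0e, mm10, Subread and featureCounts are named in the submitters' processing notes. Annotation, strand setting and the handling of multiply mapped reads are not stated there, so reads of near copies and of overlapping genes are uncertain. An opposite-strand gene covers 5.78% of the exon bases of Sp110.

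Columns were matched by sample description and groups by title. The test was edgeR 4.0.16 (under R 4.3.3) with filterByExpr on genotype, TMM scaling, and glmQLFit with terms for name set and genotype, with Benjamini-Hochberg adjustment over all genes. Each SE was derived from the F statistic. CPM was taken over TMM-scaled library totals, and values after ± are SDs. The name sets were also fitted alone and as an interaction. The fit was tested on simulated counts. Log2 CPM had a prior count of 2. Positions and exon lengths came from GENCODE M21 (GRCm38, which is mm10), where 23104 of 23472 symbols matched, 1234 as older symbols, and promoters from RefSeq. Alternatives used DESeq2 1.42.0 and limma 3.58.1. The members and lists were chosen with earlier results of these data known. Named genes were all 7 members and, from each related list, those past the threshold and those with the smallest p up to 3 (4 in the inflammasome list), with Pycard, Casp1, Gsdmd and Atrx always. For each member the 3 most correlated genes were named. Rows below the filter and single markers were picked after their values were seen. An exon length offset and the merged Ifi203 and Mndal count were added after the data were seen.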

Additional observations from a re-analysis of the deposited data

Results flagged for a closer look

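Of 14 groups of 6 libraries examined (7 genes in 2 genotypes), 1 held a library far from the others. Ifi204 in the library labelled Jak1 KO 4 stood at 0.755 CPM, from 10 counts, while the other 5 libraries labelled Jak1 KO held at most 2 counts. The cutoff used flags about 1 in 20 groups by chance when values are normally distributed. For counts as low and uneven as these, its rate is not known.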

How the results depend on the processing

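None of the 26 alternatives put a tested member past its threshold. Pml, Sp100 and Daxx stayed below 0 in all alternatives run on them, and so did Ifi203, with or without Mndal, with Sp100 between -0.48 and -0.22. Aim2 turned above 0 with DESeq2 size factors (0.025), no filter on low counts (0.021), the DESeq2 Wald test (0.025), limma-voom (0.094), the exon length offset (0.00031), VD alone (0.20) and without Jak1 KO 4, Jak1 KO 6 and wt 6 (0.14). With single libraries left out it ranged from -0.077 to 0.095. Sp110 turned above 0 in ZL alone (0.071) and with the exon length offset (0.017). Limma-voom with quality weights gave 4 members an unadjusted p under 0.05 (Sp100, Sp110, Daxx and Ifi203, lowest adjusted p = 0.137), where 12.5% of all genes had one.

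Over all genes, the 58 calls (57 lower, 1 higher) became 126 (98 and 28) with DESeq2, 220 (174 and 46) with limma-voom, 14 (14 and 0) without the name set term, 96 (88 and 8) without Jak1 KO 4, Jak1 KO 6 and wt 6, 149 (98 and 51) in VD alone and 0 (0 and 0) in ZL alone. The higher calls were 3 with no filter on low counts, at an adjusted p of 0.1 and with the exon length offset, and 2 with the replicate block. Leaving out 1 library gave 39 to 77 calls, 38 to 75 lower and 0 to 2 higher. At an adjusted p of 0.1, VD alone had 283 calls and ZL alone 2. Leaving out 1 library gave VD alone 62 calls (without wt 1) to 305 (without Jak1 KO 2), and 73 without Jak1 KO 1. The inflammasome list had 0 calls in place of 1 without the name set term and in ZL alone, and 0 to 1 with 1 library left out. The causes were not tested.

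Same-numbered libraries deviated together with r from 0.043 to 0.67, not above 0.1 in every pair, and 6 of 12 libraries correlated best with their own number, so the numbers were not taken as pairs. With the replicate block, 0 members passed, and Sp100 had a log2 fold change of -0.37 and Pml -0.34. The pooled CPM ratio of Ifi204, wt over Jak1 KO label, ranged from 4.96 to 20.3 with 1 library left out, the highest without Jak1 KO 4. Leaving out libraries was added for Ifi204 after the data were seen, and its counts reached at most 43 in a library.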
